A study of Mus musculus with 2 samples.

Results

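The Mir34 family of the mouse consists of Mir34a on chromosome 4 and the neighbours Mir34b and Mir34c on chromosome 9. These 3 genes, taken by their GENCODE M21 symbols from a table of 2202 miRNA genes, were examined in 2 hearts profiled by microRNA-seq, which sequences RNA inserts shorter than 30 nt. By the labels both hearts form 1 group, from B6CASTF1/J females aged 10 days (a first-generation cross of C57BL/6J with CAST/EiJ). The hearts are separate biosamples with separately numbered females and 1 library each, and are called biological replicates 1 and 2 (n = 2). No treatment, second tissue or second age is named, so the family is described within each heart and between the hearts.

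The family is known as a set of direct transcriptional targets of the tumour suppressor p53, through which it lowers cell cycle and anti-apoptotic genes. In the mouse heart, miR-34a is known to rise with age and after infarction and to repress Ppp1r10 and Sirt1. The chromosome 9 genes come from a common precursor transcript and are best known from testis and from the multiciliated cells of the airways. There they act together with the Mir449 genes, which carry the same seed, the stretch of bases 2 to 8 that pairs with target mRNAs.

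The mature sequences show what joins and what separates the members. They were taken from RefSeq (GRCm38.p6, the assembly also called mm10) and are written 5′ to 3′ with the seed in capitals. Entries were found for 5 of the 6 Mir34 and Mir449 genes, with 9 mature sequences. Named without a sequence are miR-34c-5p and Mir449b. The 5p arms are shown because the seed defines the family, and the 3p arms because they split it.
miR-34a-5p: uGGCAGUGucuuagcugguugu
miR-34b-5p: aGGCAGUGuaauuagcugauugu
miR-449a-5p: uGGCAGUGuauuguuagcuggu
miR-449c-5p: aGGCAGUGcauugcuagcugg
miR-34a-3p: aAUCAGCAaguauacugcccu
miR-34b-3p: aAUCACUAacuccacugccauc
miR-34c-3p: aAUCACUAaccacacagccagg

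The seed GGCAGUG stood at bases 2 to 8 of 4 of 1738 mature sequences, all of them 5p arms of Mir34a, Mir34b, Mir449a and Mir449c. With no mature sequence at hand, miR-34c-5p and Mir449b could not be part of this search. The same 7 letters occurred anywhere in 17 of 1005 hairpins (1.69%), among them all 3 Mir34 hairpins. miR-34a-5p and miR-34b-5p were identical from base 2 to base 9 and had no longer shared run. On the 3p side the seed AUCACUA was held by miR-34b-3p and miR-34c-3p and by no other of the 1738 sequences. The seed of miR-34a-3p, AUCAGCA, was its own. Counted from 1 at the 5′ end of miR-34b-3p, miR-34c-3p differed from it by 5 substitutions (U11C, C12A, U16A, U21G and C22G).

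Over the whole hairpins, Mir34b and Mir34c were the closest pair of the family. They were identical at 69.8% of the columns of a global alignment, Mir34a and Mir34b at 58.3%, and Mir34a and Mir34c at 55.3%. Mir449a was as close to Mir34a (59.6%) and to Mir34b (60.6%) as these are to each other. The longest run shared with any other of the 2202 miRNA hairpins was 12 nt for Mir34a, 11 nt for Mir34b and 11 nt for Mir34c. Runs this short leave whole mature sequences distinct among miRNA genes. Copies elsewhere in the genome were not searched here.

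Mir34a lies on the plus strand at chr4:150068454-150068555. Its last 17 nt overlap the single exon of Gm37795, a gene model of the TEC class on the same strand, and no protein-coding gene covers it. The nearest protein-coding gene on its right is Gpr157, 18809 nt away. Mir34c (chr9:51103034-51103110) and Mir34b (chr9:51103562-51103645) lie on the minus strand with 451 nt between them. Both sit in an intron of Btg4, on the strand opposite to it. The gene 4833427G06Rik begins on their own strand 955 nt beyond Mir34c. No other miRNA gene lay within 1 Mb of the chromosome 9 genes, and the 3 within 1 Mb of Mir34a had at most 8 counts in either heart. The next miRNA genes on each side of the loci, Gm47301 and Gm25779 around Mir34a and Gm23653 and Gm27686 around the chromosome 9 genes, had 0 counts in both hearts.

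**Figure D1:**
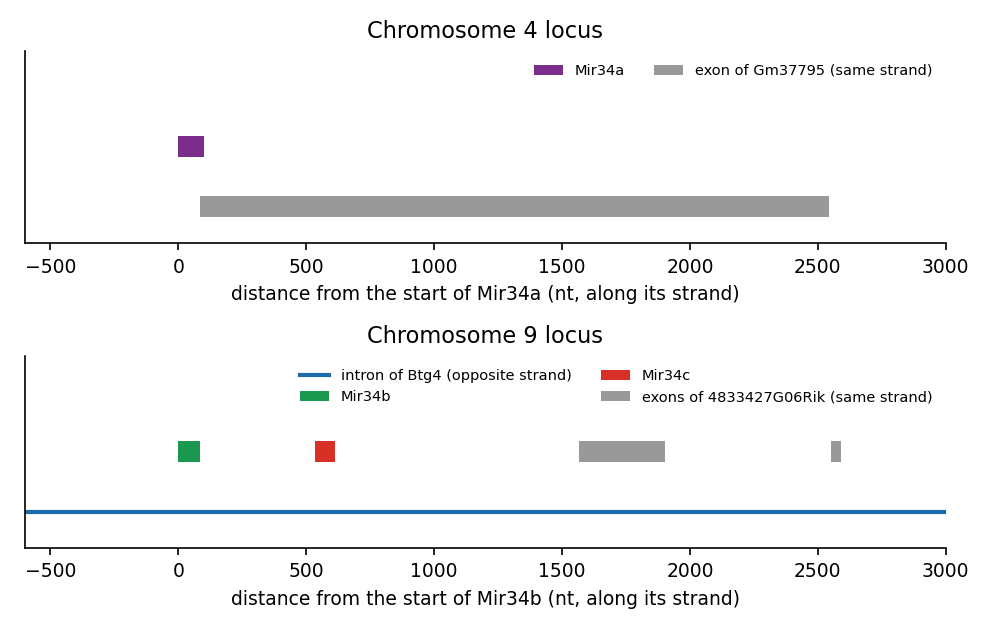
Map of both loci to scale, with the distance in nt from the start of Mir34a (top) or Mir34b (bottom) along the gene's own strand on the x axis. Coloured boxes are the miRNA hairpins, grey boxes exons of genes on the same strand, and the blue line the Btg4 intron on the opposite strand. Mir34b and Mir34c are separated by 451 nt, and Mir34a overlaps Gm37795 by 17 nt.

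Reads on miRNA genes numbered 4260561 in replicate 1 and 4583025 in replicate 2, out of 10782737 and 10201509 reads. The deposited values are raw counts per hairpin gene on the gene's strand, so the 5p and 3p arms cannot be told apart. Levels are given as CPM, the count of a gene scaled to a common total of these reads. Each read is 1 short insert, so CPM was not divided by gene length. The limit set by a count of 0, taken as 3 counts, was 0.704 CPM for replicate 1 and 0.655 CPM for replicate 2. All 3 Mir34 genes were among the 346 of 2202 genes that reached 10 counts in each heart. The heart muscle genes Mir208a, Mir208b and Mir499, from introns of myosin genes, summed to 9644 CPM in replicate 1 and 6536 CPM in replicate 2. Of 6 neuronal marker genes, 5 were at 0 in both hearts, and Mir9-3 had 0 counts in replicate 1 and 2 in replicate 2. These genes are numbered copies of Mir9 and Mir124a. Reads placed at more than 1 position were not assigned, so reads of a mature sequence shared by copies would be missing. The counts therefore do not show that neuronal miRNAs were absent.

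Mir34a carried nearly all of the family's reads. It had 11134 counts in replicate 1 and 10990 in replicate 2, which is 2613 CPM and 2398 CPM (exact 95% Clopper-Pearson intervals 2565 to 2662 and 2353 to 2443). The mean was 2506 ± 152 CPM (SD, n = 2). It ranked 47 of 2202 in replicate 1 and 44 in replicate 2, and 56 by mean CPM per nt of gene length. Mir378a, the most abundant gene by uniquely placed reads, stood at 154380 and 150502 CPM.

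Mir34c was an intermediate gene in replicate 1 and a low one in replicate 2. It had 553 and 144 counts, or 130 CPM (119 to 141) and 31.4 CPM (26.5 to 37.0), with a mean of 80.6 ± 69.6 CPM (SD, n = 2). Its rank was 153 in replicate 1 and 211 in replicate 2. The intervals of the hearts lie far apart, and the SD is close to the mean.

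Mir34b was the lowest member in both hearts, close to the detection minimum. It had 17 and 19 counts, or 3.99 CPM (2.32 to 6.39) and 4.15 CPM (2.50 to 6.47), at ranks 321 and 318. The intervals overlap almost completely. The median of those 346 genes was 85.1 CPM, so Mir34a stood above it, Mir34c straddled it and Mir34b fell below it.

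**Figure D2:**
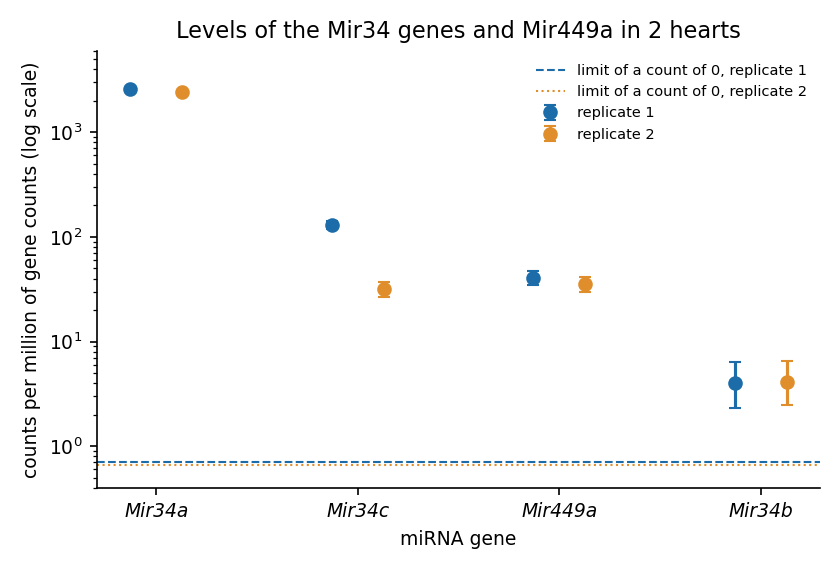
Levels of the 3 Mir34 genes and Mir449a in CPM on a log axis, with replicate 1 in blue and replicate 2 in orange. Bars are exact 95% counting intervals and horizontal lines the limits that a count of 0 allows. Mir34a lies at 2613 and 2398 CPM, Mir34c at 130 and 31.4 CPM, Mir449a at 40.4 and 35.1 CPM and Mir34b at 3.99 and 4.15 CPM.

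The whole family's share of the gene counts was 0.275% for replicate 1, with an exact 95% interval of 0.270 to 0.280, and 0.243% for replicate 2 (0.239 to 0.248). Mir34a held 95.1% of the family's counts in replicate 1 and 98.5% in replicate 2. The share of Mir34c was 4.72% (4.35 to 5.12) and 1.29% (1.09 to 1.52), and that of Mir34b 0.145% (0.0846 to 0.232) and 0.170% (0.103 to 0.266). The chromosome 9 genes together thus made up 4.87% of the family in replicate 1 and 1.46% in replicate 2. Of the pair's counts, Mir34c had 553 of 570 in replicate 1 and 144 of 163 in replicate 2.

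The order Mir34a, Mir34c, Mir34b held in both hearts, but the distances differed. By counts, the log2 ratio of Mir34a over Mir34c was 4.33 in replicate 1 (4.21 to 4.46 by the exact 95% interval), a 20.1-fold excess, and 6.25 in replicate 2 (6.02 to 6.50), a 76.1-fold excess. Per nt of gene length these log2 ratios were 3.92 and 5.84. Mir34a exceeded Mir34b 636-fold in replicate 1 (log2 ratio 9.31, 8.68 to 10.14) and 564-fold in replicate 2 (9.14, 8.53 to 9.91). The per-length log2 ratios of Mir34a over Mir34b were 9.03 and 8.86. Within the chromosome 9 pair, Mir34c exceeded Mir34b 31.6-fold in replicate 1 (log2 ratio 4.98, 4.33 to 5.81) and 7.41-fold in replicate 2 (2.89, 2.23 to 3.70). Per nt the pair's log2 ratios were 5.11 and 3.02. Such ratios compare different sequences, and how evenly these are ligated and mapped was not tested.

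**Figure D3:**
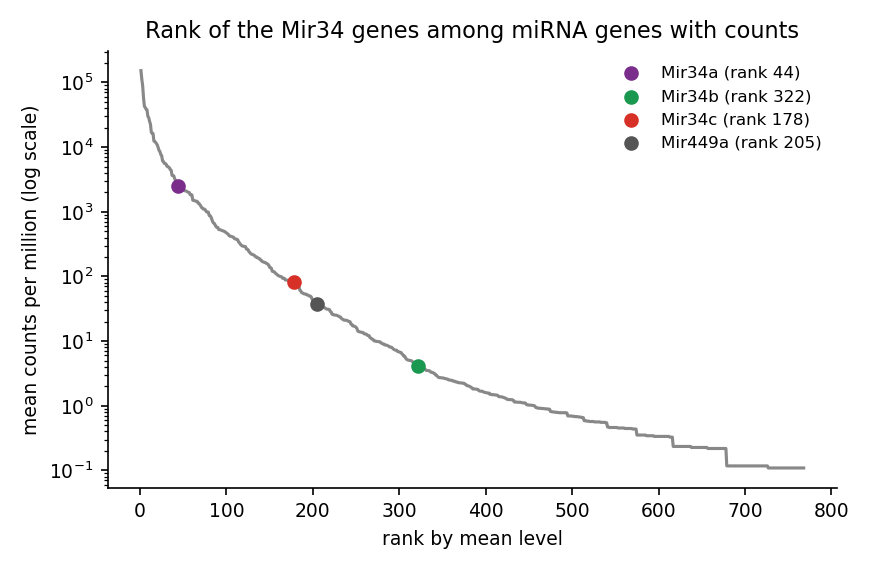
Mean level in CPM on a log axis against rank for the 768 miRNA genes with at least 1 count, with the Mir34 genes and Mir449a marked. By mean level Mir34a ranks 44, Mir34c 178, Mir449a 205 and Mir34b 322.

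Between the hearts, Mir34c differed several-fold and Mir34a by little, to a degree that depended on the scaling. No difference was detected for Mir34b at its few counts. An exact two-sided binomial test on the counts, scaled by trimmed mean of M values (TMM) factors, was run on every gene whose counts summed to at least 20, with Benjamini-Hochberg adjustment over all of them. It sets the libraries against counting noise and says nothing of conditions or of animals at large. Of 375 genes tested, 207 (55.2%) passed at an adjusted p of 0.05, 109 higher in replicate 1 (29.1%) and 98 higher in replicate 2 (26.1%). Of the 3 Mir34 genes, 2 passed, both higher in replicate 1, which against 55.2% is not a result about the family.

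The log2 ratio of replicate 1 over replicate 2 was 1.98 for Mir34c (exact 95% interval 1.71 to 2.25), a 3.93-fold difference (exact binomial test, adjusted p = 4.25e-59). For Mir34a it was 0.06 (0.02 to 0.10), a 1.04-fold difference that passed (exact binomial test, adjusted p = 0.00641). It did not pass with DESeq2 size factors (0.02, exact binomial test, adjusted p = 0.443). With total gene counts the log2 ratio of Mir34a was 0.12 and passed (exact binomial test, adjusted p = 5.53e-10), so its size depends on the scaling. For Mir34b the log2 ratio with TMM factors was -0.12 (-1.16 to 0.90), which did not pass (exact binomial test, adjusted p = 0.920). With 36 counts in all, a difference of Mir34b inside that interval was not detectable, but the interval ends at 0.90, below the 1.71 at which that of Mir34c begins.

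Differences as large as that of Mir34c were uncommon. Of the 375 genes, 40 (10.7%) passed and were at least 2-fold apart, and 22 (5.87%) passed and were at least 2-fold higher in replicate 1. Among the 266 genes whose counts summed to at least 100, 5 were as far apart as Mir34c or farther, itself included, and 2 of them, Mir34c among them, were higher in replicate 1. The median absolute log2 ratio over all 375 genes was 0.37. Mir34a lay at the other end, since 232 of the 266 genes were at least as far apart as it was.

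**Figure D4:**
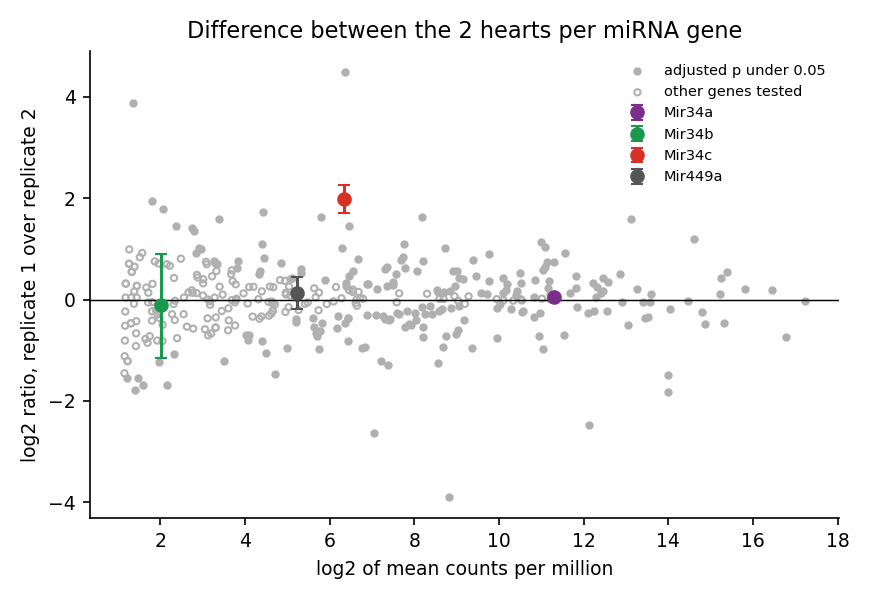
Log2 ratio of replicate 1 over replicate 2 against the log2 of the mean CPM for the 375 genes tested. Filled grey points passed at an adjusted p of 0.05, open grey points did not, and bars on the marked genes are exact 95% intervals. Mir34c stands at 1.98, while Mir34a (0.06), Mir34b (-0.12) and Mir449a (0.13) lie near 0.

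The difference between members was tested directly with Fisher's exact test on their counts in both libraries, which needs no scaling, with adjustment over the 3 pairs. The log2 library ratio of Mir34a minus that of Mir34c was -1.92 (exact 95% interval -2.20 to -1.65, Fisher's exact test, adjusted p = 2.43e-54). Mir34c exceeded its neighbour Mir34b by 2.10 (1.03 to 3.17, Fisher's exact test, adjusted p = 5.68e-05). Mir34a and Mir34b differed by 0.18 (-0.84 to 1.21, Fisher's exact test, adjusted p = 0.741). The library ratios of the chromosome 9 genes thus differed from each other beyond counting noise. Of these genes only Mir34c passed between the libraries. The labels name no molecular identifiers, so repeated copies of an insert would count as separate reads, and all intervals and limits here cover counting error only.

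Other miRNA genes that lie side by side give a scale for this. Neighbours on 1 strand within 10 kb, each with at least 20 counts in all, formed 92 other pairs with 142 genes, 35 of the pairs on chromosome 12. Their level within a heart differed by a median absolute log2 ratio of 2.68 (range 0.03 to 7.86), against 3.94 for Mir34c and Mir34b, and 25 of the 92 had a larger gap. Their library ratios differed by a median of 0.45 (range 0.02 to 2.09), against 2.09 for the Mir34 pair with the prior count of 0.5. None of the 92 exceeded it. The pair of Mir296 and Mir298, an imprinted locus on chromosome 2 with 378 nt between the genes, was level with it at 2.09. Of the 92 pairs, 20 had a gap above 1.03, the lower bound that counting error leaves for the Mir34 pair. Without regard to strand, 1 of 71 other pairs had a larger gap than the Mir34 pair. Some of the other pairs hold genes with numbered copies elsewhere, such as Mir24-1 and Mir24-2. Reads placed at more than 1 position are left out, so gaps of those pairs need not reflect the mature sequences. How far this shifts the medians and ranges was not tested, so the scale is a rough one.

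**Figure D5:**
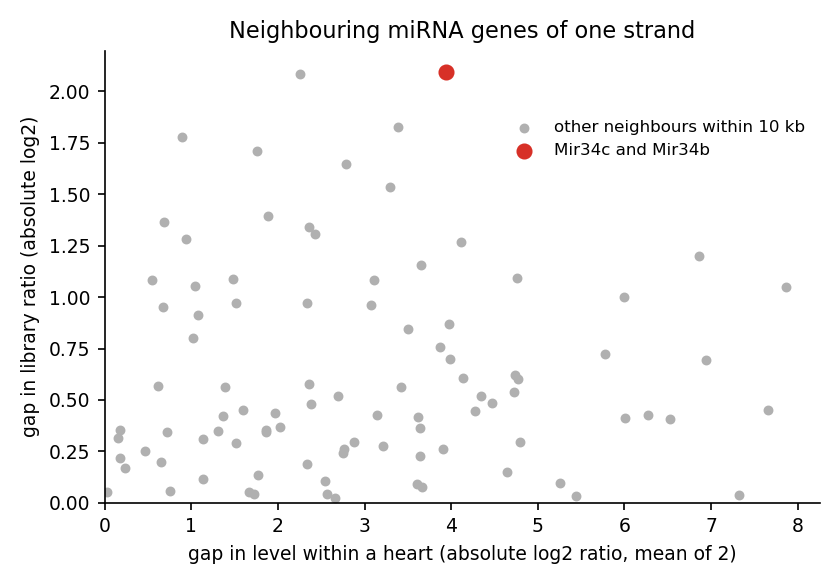
Gap in library ratio (absolute log2 difference) against the gap in level within a heart (absolute log2 ratio, mean of 2 hearts) for neighbouring miRNA genes within 10 kb on 1 strand. Each point is a pair, and Mir34c and Mir34b are shown in red. The Mir34 pair lies at 3.94 and 2.09, and the medians of the other 92 pairs are 2.68 and 0.45.

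The Mir449 genes, which share the seed and lie in Cdc20b, a gene known from multiciliated cells, on chromosome 13, gave a different picture. Mir449a had 172 counts in replicate 1 and 161 in replicate 2, or 40.4 CPM and 35.1 CPM (37.8 ± 3.71, SD, n = 2). Its log2 ratio between the hearts was 0.13 (-0.18 to 0.45), which did not pass (exact binomial test, adjusted p = 0.523). Mir449b and Mir449c had 0 counts in both hearts, so that levels up to 0.704 CPM and 0.655 CPM remain possible. In replicate 1 the log2 ratio of Mir449a over Mir34c was -1.68 by counts (-1.94 to -1.44) and -1.92 per nt. In replicate 2 it was 0.16 by counts, with an interval of -0.17 to 0.50 that includes 0, and -0.08 per nt, so Mir34c and Mir449a did not differ in level there beyond counting error. Among all counts on genes with this seed, Mir449a took 1.45% in replicate 1 and 1.42% in replicate 2.

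Other miRNA genes linked to p53 moved in both directions. Of 11 such genes, all tested, 4 were higher in replicate 1, 4 were higher in replicate 2 and 3 did not pass, against 29.1% and 26.1% of all genes tested. Their median log2 ratio of replicate 1 over replicate 2 was -0.17, against 0.02 over all 375 genes. Higher in replicate 1 were Mir107 (4038 and 2029 CPM, log2 ratio 0.93), known for a role in metabolism, and Mir200c (570 and 270 CPM, 1.01) with its cluster neighbour Mir141 (25.1 and 16.2 CPM, 0.57), both known from epithelium. Mir143, known from smooth muscle, was the fourth (51605 and 33943 CPM, 0.54), while its cluster neighbour Mir145a did not pass (2130 and 2009 CPM, 0.02).

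Higher in replicate 2 were Mir15a (1457 and 2735 CPM, log2 ratio -0.98) and Mir16-1 (953 and 1025 CPM, -0.17), a cluster known to repress Bcl2. Mir215 (60.1 and 84.9 CPM, -0.56) and Mir194-2 (12.7 and 21.2 CPM, -0.80), known from gut and kidney, were also higher in replicate 2. Their cluster neighbours Mir194-1 (9.86 and 14.4 CPM, -0.61) and Mir192 (23.7 and 26.6 CPM, -0.23) did not pass. Within this list the largest difference was 1.01, for Mir200c, against 1.98 for Mir34c. Mir16-1, Mir194-1 and Mir194-2 are numbered copies, and reads placed at more than 1 position are left out. Values of these genes thus cover uniquely placed reads only and need not follow a mature sequence that copies share.

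Markers of other cell types differed between the hearts as well, and their part in the Mir34c difference was not tested. Of all 375 genes tested, 29.1% passed higher in replicate 1 and 26.1% higher in replicate 2. The marker lists are short, so counts within them are read beside these shares and not as results about cell types. Of 7 epithelial marker genes, 5 were higher in replicate 1 and 1, Mir200b, in replicate 2. They summed to 801 CPM in replicate 1 and 427 CPM in replicate 2, and none was at 0. Of the 3 multiciliated cell markers, Mir449b and Mir449c were at 0 and the sum was 40.4 and 35.1 CPM. The 3 heart muscle genes were all higher in replicate 1 (9644 and 6536 CPM), with log2 ratios from 0.19 (Mir208b) to 1.05 (Mir208a). The 3 erythroid genes were all higher in replicate 2 (550 and 1048 CPM), but unevenly. Their log2 ratios were -2.64 for Mir144, -1.25 for Mir451a and -0.15 for Mir486. The endothelial Mir126a was higher in replicate 2 (86322 and 137860 CPM). Of the smooth muscle markers, which summed to 53735 and 35952 CPM, 1 of 2 was higher in replicate 1. Of the white blood cell markers (889 and 865 CPM) 1 of 3 was higher in replicate 2, as was the liver gene Mir122 (76.3 and 141 CPM). The epithelial list shares Mir141 and Mir200c, and the smooth muscle list both of its genes, with the p53-linked list. In bulk tissue, fewer cells of a type and less RNA per cell cannot be told apart.

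The genes nearest to each member in level over both hearts, by the distance between their log2 CPM values, were as follows. Mir34a was closest to Mir342 (2440 and 2326 CPM, distance 0.11), Mir324 (0.12) and Mir181d (0.22). Mir34c had no close match. Its nearest genes were Mir222 (130 and 45.2 CPM, distance 0.52), Mir376c (84.7 and 26.2 CPM, 0.67) and Mir669l (107 and 50.2 CPM, 0.73). All 3 were higher in replicate 1, a direction that choosing genes by their level in both hearts favours. Mir34b had the same counts as Mir670, 17 and 19, and lay close to Mir5100 (0.18) and Mir1947 (0.20). With 2 libraries these are likenesses of level and say nothing of shared control.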

How the data were processed

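Raw read counts per miRNA gene, 1 table per library, were deposited by the authors; the assembly mm10 and GENCODE M21 are named per the file headers. For the aligner and the counter, names were not given in the sources used here. Reads placed at more than 1 position are not assigned to genes. The gene-strand column was used, without the 4 category rows, which took 60.5% and 55.1% of reads. All 2202 IDs matched M21. TMM factors came from edgeR 4.0.16 (R 4.3.3), and ratios are replicate 1 over replicate 2 with a prior count of 0.5. The binomial test was run on simulated counts that vary by sampling alone, as the test itself assumes. That run checks the calculation and says nothing of variation between real libraries. Hairpins were aligned with match 1, mismatch -1 and gap -2 (Biopython 1.88). CAST/EiJ alleles can mismatch mm10, which was not tested.

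The members and lists were chosen with earlier results of these data known. Named genes were the members, genes with the same seed, p53-linked genes that passed or had 100 or more counts, the 3 genes nearest in level, adjacent miRNA genes and the most abundant gene. Those named for their cell type or as the largest gap follow the marker lists and the neighbour comparison. Results were recomputed with size factors from DESeq2 1.42.0 or total counts, with the column that ignores strand, with other minimums, prior counts and denominators, and with each replicate left out. Python 3.11.15, scipy 1.17.1 and statsmodels 0.14.6 were used.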

Additional observations from a re-analysis of the deposited data

Results flagged for a closer look

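Some reads lay outside the gene-strand counts. Reads placed at more than 1 position numbered 4193785 in replicate 1 and 3872896 in replicate 2, and how many of them carry a Mir34 sequence was not tested. Mir122, a liver marker, had 19 reads in replicate 1 and 17 in replicate 2 on the strand opposite to the gene. Mir203, an epithelial marker, had 12 and 8. Among the named and marker genes with no miRNA gene annotated opposite to them, these were the genes with over 3 such reads in both hearts. Mir324 had 7 in replicate 1 and 3 in replicate 2, and the erythroid gene Mir486, which has a miRNA gene opposite to it, had 60 and 62. The Mir34 genes stayed under that limit: Mir34b had 2 and 1 such reads, Mir34a and Mir34c 0.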

How the results depend on the processing

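Of 97 values under alternatives, 18 leave out a replicate, which with 2 hearts cannot move a mean by more than 1 SD. Of the other 79, 67 were kept, 11 moved and 1 lost its call; none reversed. Kept means within 1 SD for levels, with an unchanged call for tests and within 1.5 times for counts and gaps. The call of Mir34a was lost with DESeq2 size factors (log2 ratio 0.02); the cause was not tested. The log2 ratio of Mir34c ran from 1.94 to 2.04; its mean level rests on unlike hearts (130 CPM in replicate 1 alone, 31.4 CPM in replicate 2 alone). Its SD is close to its mean, so its level counts as kept although it was 112 CPM without regard to strand and 32.7 CPM over all reads, against 80.6 CPM. Without regard to strand, where 1153617 and 1474322 reads become ambiguous and leave the denominator, Mir34a was at 3559 CPM, Mir34b at 6.27 CPM and the family at 0.368%. Over all reads these were 1055 CPM, 1.72 CPM and 0.109%, and without Mir378a 2957 CPM, 4.80 CPM and 0.306%. Genes beyond counting noise numbered 207, and 40 with at least 2-fold difference. Per nt, chosen after seeing the data, the mean log2 ratio of Mir34a over Mir34b was 8.95, against 9.23. With a summed count of 100 or more, Mir34b could not be tested. No paired analysis was possible because the labels name a single group. Depth limits Mir34b most, at 36 counts in all.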
